A study of Mus musculus with 15 samples.

Results

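Expression was followed from mouse embryonic stem (ES) cells to the embryoid bodies named EB9 in control cells. The comparison rests on 7 of the 15 arrays of the series, the 3 titled ES control and the 4 titled EB9 control, chosen by title alone. ES cells are pluripotent cells of the early embryo kept in culture, and embryoid bodies are the aggregates in which they differentiate. Their treatment is labelled none, and the design text names the ES controls shCtr, the usual short form for a control short hairpin RNA. The other 8 arrays, 4 of ES cells and 4 of EB9, hold cells labelled KD33, whose Cbx7 the labels call depleted. They share the estimate of the spread here and are compared with the controls only at the end. The day of EB9, the cell line and the culture conditions are not given in the sources used here. The titles call every array a biological replicate, but no label says what was grown separately, so p-values measure the spread between these arrays.

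When ES cells aggregate without the factors that keep them renewing, the network of transcription factors around Pou5f1 and Nanog is shut down and the cells pass through states like those of the implanting embryo. Nodal, Wnt, BMP and FGF signals then direct cells into mesoderm and endoderm. Embryoid bodies are known for an outer layer like yolk sac endoderm, for primitive red blood cells and endothelium, and for beating heart muscle. Hox genes, silenced in ES cells by Polycomb complexes, are switched on as the trunk of the embryo forms.

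Each sample supplied 500 ng of total RNA, which was amplified from the poly(A) tail, labelled with Cy3 and read on a 1-colour Agilent array. A level is the log2 processed signal of the brightest probe of a gene minus the 75th percentile of the array. A change is the mean level of EB9 control minus that of ES control, with its standard error (SE) from limma, so a change of 1 is 2-fold. A gene is said to have risen or fallen where the adjusted p, by the Benjamini-Hochberg method over 21187 genes, was under 0.05. Levels are listed in the order ES control 2, 3 and 4 and EB9 control 1, 2, 3 and 4. Where no array of the dimmer stage lay well above background by the scanner software's test, the fold is a lower bound, written "at least"; where only some did, their number stands beside the fold, which then rests partly on readings at background. Between 62.5% and 69% of the features lay well above background on 6 of the 7 arrays, while on EB9 control 2 the share was 75.4%. Saturation touched no feature. All EB9 controls lay at position 1 of a slide and all ES controls at position 3, so position and stage cannot be told apart. In aggregates of mixed cells, fewer cells of a type and less RNA per cell cannot be told apart either.

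The transcriptome changed broadly between the stages. Of 21187 genes tested, 15840 (74.8%) passed the test: 7044 (33.2%) rose and 8796 (41.5%) fell. At least 2-fold rises were called for 3827 genes (18.1%) and at least 2-fold falls for 4611 (21.8%), and the median change of all genes was −0.14. The EB9 and ES readings did not overlap for 15454 genes (72.9%). On each of the 3 slides that held both stages, 15627 genes, 98.7% of those called, moved in the called direction, and 85.9% of all genes moved the same way on all 3. The 54 gene lists described here held 997 genes, of which 942 were tested, 480 rose, 320 fell and 142 did not pass. The other 55 were either without a named probe or too dim to be tested. A gene could enter the test through the stage in which it is high, so list counts are descriptions and are read against these shares.

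**Figure D1:**
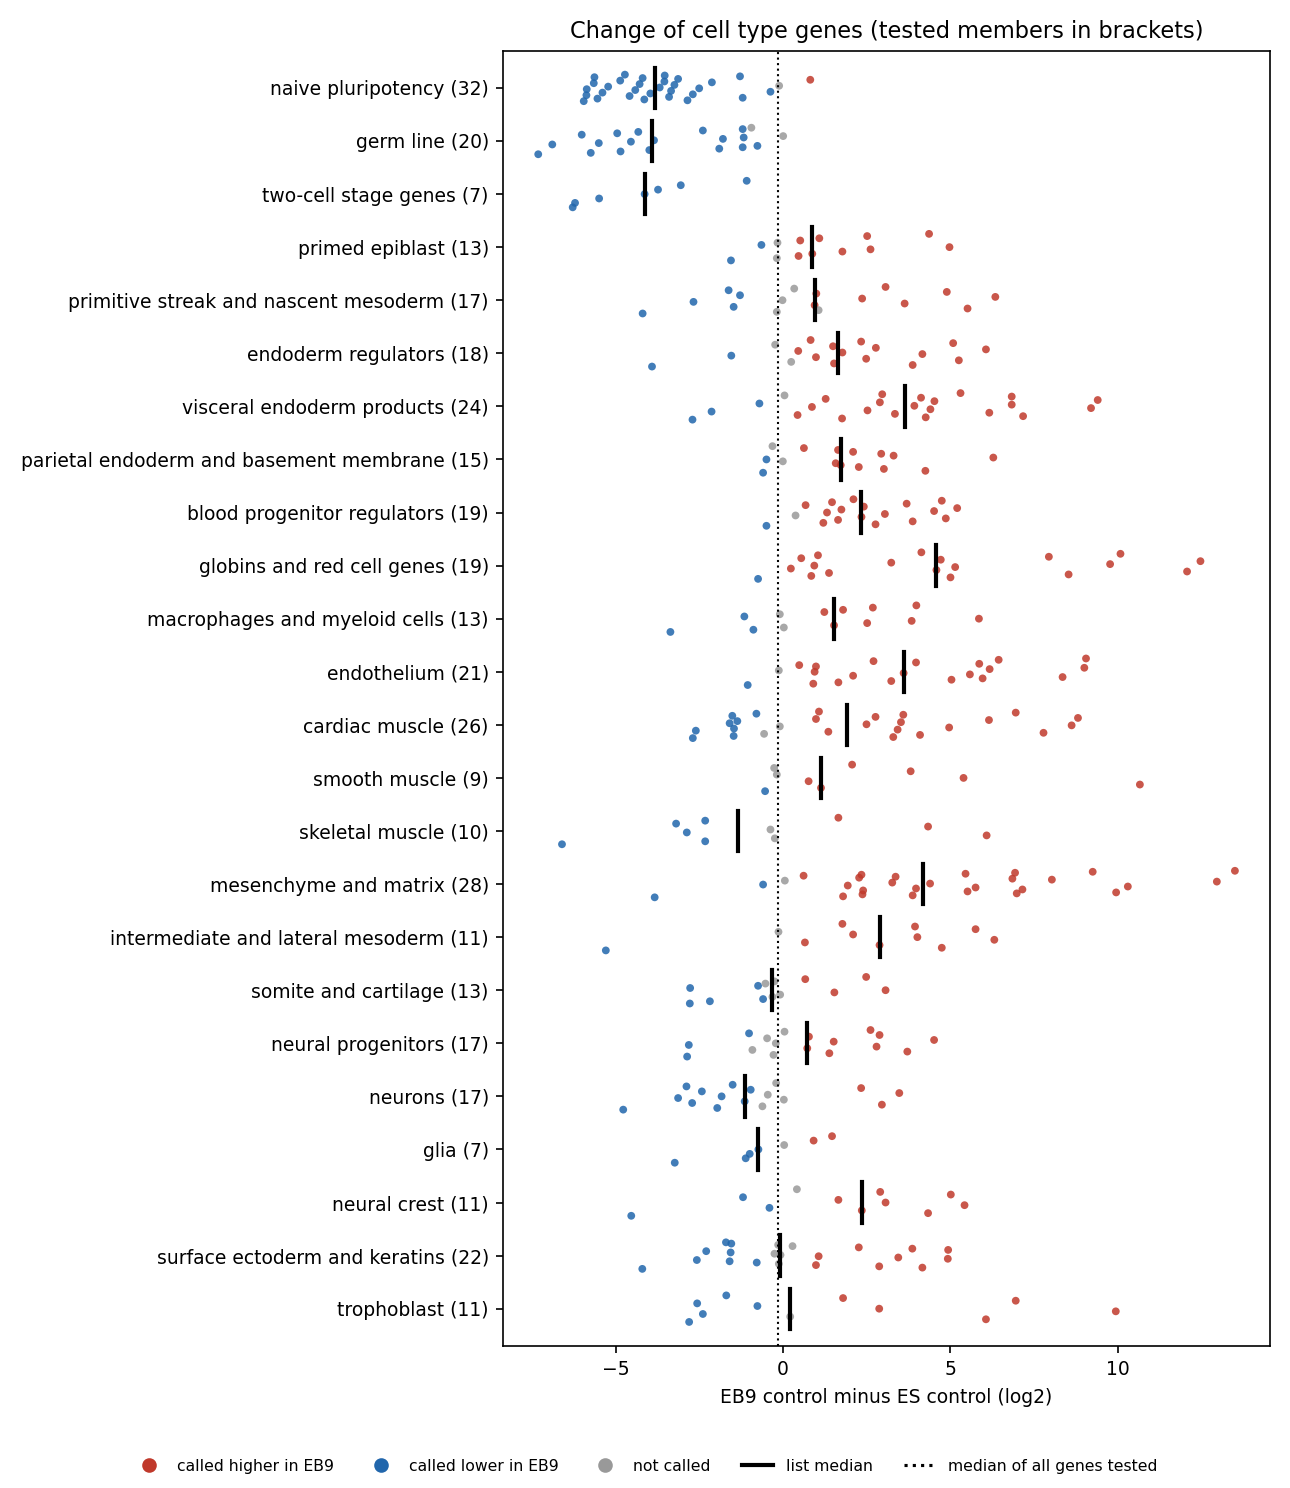
Change from ES control to EB9 control (log2, horizontal axis) of the tested members of 24 cell type lists; each point is a gene, coloured by its call, black bars are list medians and the dotted line is the median of all genes tested (−0.14). Naive pluripotency, germ line and two-cell genes lie to the left, with medians of −3.83, −3.93 and −4.14, and globins, mesenchyme, visceral endoderm and endothelium to the right.

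The 20 greatest rises included genes of connective tissue, red cells, endothelium and smooth muscle. Col3a1, which encodes type III collagen, had log2 levels of −9.04, −8.55 and −9.18 on the ES arrays and 5.0, 4.12, 4.5 and 4.65 on the EB9 arrays. None of the ES arrays was above background and all EB9 arrays were far above them, a rise of at least 2750-fold (log2 change 13.5 ± 0.30 (SE), adjusted p = 1.99e-13). The matricellular protein gene Postn rose at least 2140-fold, the small proteoglycan gene Lum at least 350-fold, and Has2, which makes hyaluronan, 354-fold. The embryonic globin genes Hbb-bh1 and Hba-x rose 4310-fold and at least 1660-fold. The endothelial surface protein genes Cd93 and Icam2 rose at least 576-fold and 399-fold. Acta2, the smooth muscle actin, rose 1610-fold, and Igfbp5, a binding protein for insulin-like growth factors, at least 815-fold. Others among the 20 greatest rises were the Wnt-enhancing ligand Rspo3 (558-fold, 1 of 3 ES arrays above background), the placental gene Plac1 (984-fold, 2 of 3 ES arrays above background), the imprinted gene Asb4 (670-fold), the protocadherin Pcdh18 (at least 470-fold), the RNA-binding protein gene Rbms3 (at least 345-fold) and the protease inhibitor genes Ctla2a (at least 1040-fold) and Ctla2b (at least 469-fold).

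The 20 greatest falls included genes of the germ line and early embryo beside genes of other or unstated roles. Gtsf1, a factor of small RNA silencing in germ cells, fell 286-fold, Stra8, a gatekeeper of meiosis, 160-fold, and the testis tubulin Tuba3a 119-fold. These were above background on all EB9 arrays, as were AA684185 (113-fold), Gm2046 (108-fold), Gm2022 (107-fold) and Dmrtc1c2 (105-fold). C130073F10Rik and Gm8300 fell 152-fold and 104-fold, above background on 3 of 4 EB9 arrays. In 10 others only EB9 control 2 was above background, so their folds rest mostly on readings at background. Among these, the X-linked family members Xlr5c, Xlr5b and Xlr5a fell 296-fold, 201-fold and 113-fold, and their near-identical copies may share probes. The oocyte homeobox gene Obox6 fell 112-fold, Pramel14 106-fold, Taf7l2 157-fold and Ctag2l1 123-fold. The remaining 3 of them were the ion transport regulator gene Fxyd4 (168-fold), Gm5301 (166-fold) and the lipogenic gene Thrsp (117-fold). Ctag2l2, not above background in EB9, fell at least 136-fold.

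Naive pluripotency, the state of ES cells, was marked by a list of genes of which nearly all fell. Of 32 tested members, 1 rose, 30 fell and 1 did not pass (median change −3.83), and readings of the stages did not overlap for 31 members. EB9 control 2 held the highest EB9 reading for 20 of the 32 members, beside 39.5% of all genes, and EB9 control 1 the lowest for 22, beside 32.6%; without either array the same numbers of members rose and fell. Nanog, a core factor of self-renewal, had log2 levels of 5.58, 5.46 and 5.47 on the ES arrays and 0.24, 0.9, 0.66 and 0.73 on the EB9 arrays. Every EB9 array lay far below every ES array, a 29.3-fold fall (log2 change −4.87 ± 0.13 (SE), adjusted p = 7.64e-13). A dimmer second probe of Nanog rose by 1.63. Zfp42, a marker of the naive state, had log2 levels of 6.11, 6.0 and 6.03 on the ES arrays and −0.01, 0.3, 0.14 and 0.28 on the EB9 arrays. Its stages did not overlap either, a 58.5-fold fall (log2 change −5.87 ± 0.08 (SE), adjusted p = 3.99e-15).

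The other core members fell as well. Pou5f1 fell 17.7-fold (−4.15 ± 0.12), and the orphan receptor gene Esrrb, which sustains self-renewal, 49.7-fold (−5.64 ± 0.08). Klf4 fell 21.4-fold, Klf2 7.27-fold and Prdm14, a repressor of the primed state, 19.6-fold. Dppa3, which protects maternal methylation, fell 5.68-fold. The largest falls of the list were Fgf4 (62.1-fold) and Nr0b1 (59-fold). The only member that rose was Il6st, the shared receptor subunit through which leukaemia inhibitory factor signals (0.81 ± 0.07).

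Promoter sequences from RefSeq (GRCm38.p6, 250 bases before to 50 after each start) were at hand for 13273 of the genes tested. The octamer TTTGCAT, the motif bound by Pou5f1 and its relatives, was searched on both strands. A gene counted where any of its listed promoters held the motif. The share was 4.29% of all these genes, 5.31% of those that fell at least 2-fold and 3.91% of those that rose at least 2-fold. Among naive pluripotency genes with a promoter it was 2 of 21. The 2 matches are shown because they stand in the genes whose fall is described above. They begin at position −75 from the start of Nanog, in 1 of its 2 listed promoters (chr6:122707389-122707445, plus strand), and at position −185 from that of Zfp42 (chr8:43307163-43307219, minus strand). Capitals mark the octamer. A match is a description of the letters only.
Nanog: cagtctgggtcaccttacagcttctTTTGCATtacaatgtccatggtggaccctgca
Zfp42: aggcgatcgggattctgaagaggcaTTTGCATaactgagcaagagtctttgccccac

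Genes of the primed epiblast, the state that follows implantation, were mostly above their ES level. Of 13 tested members, 9 rose, 2 fell and 2 did not pass (median change 0.87). Fgf5, the classical marker of this state, was not above background in ES cells and rose at least 22.7-fold (4.97 ± 0.25, adjusted p = 5.46e-10). Otx2, which drives entry into it, rose by 0.51 ± 0.16, with EB9 control 2 highest. Pou3f1, another factor of the primed state, fell 2.95-fold (−1.56 ± 0.18). Sall2 and Sox4 rose 20.5-fold and 6.1-fold.

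ES cells carried RNA of many germ line genes, and these were lower in EB9. Of 20 tested members, 0 rose, 18 fell and 2 did not pass (median change −3.93). EB9 control 2 was the highest EB9 array for 13 of the 20 members and EB9 control 1 the lowest for 11. Stra8 had log2 levels of 5.45, 5.44 and 5.56 on the ES arrays and −2.21, −1.38, −1.84 and −1.93 on the EB9 arrays. The stages did not overlap, a 160-fold fall (log2 change −7.32 ± 0.15 (SE), adjusted p = 1.01e-13). Dazl, an RNA-binding protein of germ cells, fell 23.4-fold, and Ddx4, the germ cell helicase Vasa, 5.29-fold. Hormad1, a protein of meiotic chromosome axes, was not above background in EB9 and fell at least 16.8-fold, and its second probe fell by 2.92 on the log2 scale. The 2 members that did not pass were Nanos3 (0.0 ± 0.43) and Tdrd1 (−0.95 ± 0.54); Tdrd1 passed without EB9 control 2 (change of −1.59).

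The motif CACGTG, an E-box of the type bound by Myc and Max, was present in promoters of 9 of 18 germ line genes (50%). The share was 10.9% of all genes with a promoter, 10.7% of those that fell at least 2-fold and 9.3% of those that rose at least 2-fold. The germ line share was picked after its value was seen, among 324 shares of lists and motifs, so it carries no test. The 9 germ line genes with the motif had a median change of −3.86 (−6.02 to −0.95) and the 9 without it −4.0 (−7.32 to 0.00). The 6 shown fell and hold it within the sequence printed, and capitals mark the E-box. For Hormad1 and Stk31, 1 of 2 listed promoters is shown. Sycp1, Sycp3, Stk31 and Taf7l are named for their promoters, after their values were seen. The changes were −6.02 for Hormad1, −4.86 for Sycp1 and −1.21 for Sycp3, both of the synaptonemal complex, −4.33 for the testis kinase Stk31, −2.4 for Ddx4 and −1.8 for the germ cell transcription factor subunit Taf7l. They lie at chr3:95559595-95559676 (plus strand), chr3:102936164-102936219 (minus strand), chr10:88459498-88459574 (plus strand), chr6:49395459-49395514 (plus strand), chr13:112652311-112652364 (minus strand) and chrX:134476509-134476564 (minus strand).
Hormad1: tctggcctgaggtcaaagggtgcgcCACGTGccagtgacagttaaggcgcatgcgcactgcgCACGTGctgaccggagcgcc
Sycp1: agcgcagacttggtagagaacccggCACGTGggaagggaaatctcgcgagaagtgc
Sycp3: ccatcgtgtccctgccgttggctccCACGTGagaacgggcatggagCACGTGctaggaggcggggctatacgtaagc
Stk31: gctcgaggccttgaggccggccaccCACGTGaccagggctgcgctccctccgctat
Ddx4: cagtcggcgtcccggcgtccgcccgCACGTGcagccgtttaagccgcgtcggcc
Taf7l: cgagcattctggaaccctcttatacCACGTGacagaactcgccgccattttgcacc

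Genes of the two-cell embryo, which flicker on in a small share of ES cells, were all called lower among the 7 tested (median change −4.14). Readings of the stages did not overlap for 6 of them and overlapped for the remaining member. Zscan4c, the family's best known member, had log2 levels of 2.49, 2.3 and 2.24 on the ES arrays and −4.24, −3.68, −3.8 and −3.79 on the EB9 arrays, a 74.7-fold fall (log2 change −6.22 ± 0.12 (SE), adjusted p = 4.01e-14). For Zscan4c all EB9 arrays were far below all ES arrays. Zscan4f fell 78-fold and Tcstv1 45.2-fold (3 of 4 EB9 arrays above background). These are members of multigene families, and their probes may read several copies.

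**Figure D2:**
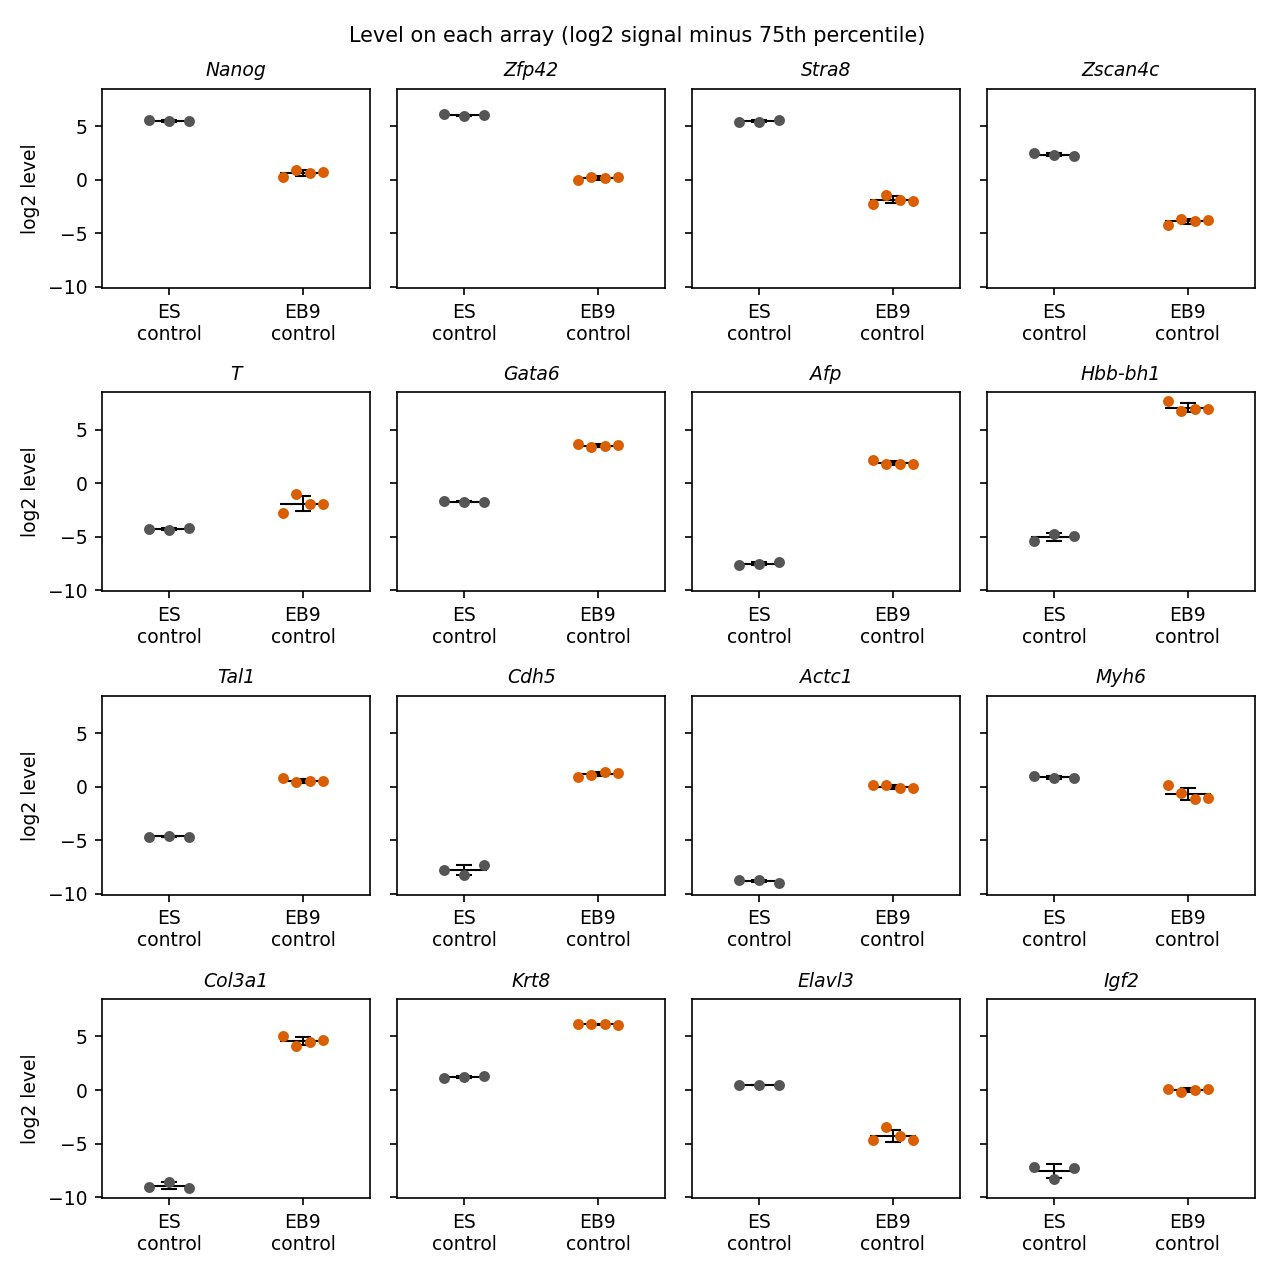
Levels of 16 genes (vertical axis, log2 signal minus the 75th percentile of the array) on the 3 ES control and 4 EB9 control arrays; points are arrays, horizontal bars group means and whiskers ± SD. Levels of different genes come from different probes and are not to be compared. EB9 arrays lie below ES arrays for Nanog, Zfp42, Stra8, Zscan4c, Myh6 and Elavl3 and above them for the other 10 genes.

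Genes of the primitive streak, through which mesoderm and endoderm arise, were mixed at this stage. Of 17 tested members, 8 rose, 5 fell and 4 did not pass (median change 0.94). T (Brachyury), the key factor of nascent mesoderm, had log2 levels of −4.31, −4.38 and −4.15 on the ES arrays and −2.76, −1.04, −1.95 and −1.92 on the EB9 arrays. It was higher on all EB9 arrays and varied among them, lowest on EB9 control 1 and highest on EB9 control 2 (log2 change 2.36 ± 0.39 (SE), adjusted p = 9.75e-05). Evx1, a factor of the posterior streak, rose 81.2-fold, Wnt3 at least 14.4-fold and the mesoderm receptor Pdgfra 45.7-fold. Eomes and Mesp1, which act early in mesoderm and heart precursors, had changes of −0.02 ± 0.12 and 0.33 ± 0.24 and did not pass, though Mesp1 passed without EB9 control 1 (change of 0.53). The organiser gene Gsc fell 3.09-fold, the somite segmentation gene Mesp2 18.3-fold (3 of 4 EB9 arrays above background) and the Notch ligand Dll1 6.4-fold. EB9 control 2 held the highest EB9 reading for 13 of the 17 members, beside 39.5% of all genes.

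Endoderm regulators mostly rose. Of 18 tested members, 14 rose, 2 fell and 2 did not pass (median change 1.64). Gata6, which directs extraembryonic endoderm, had log2 levels of −1.68, −1.74 and −1.77 on the ES arrays and 3.7, 3.35, 3.48 and 3.56 on the EB9 arrays. The arrays of a stage lay close together and the stages did not overlap, a 38.1-fold rise (log2 change 5.25 ± 0.16 (SE), adjusted p = 2.91e-12). Gata4 rose 14.6-fold, Sox17 6.81-fold, Sox7 33.8-fold and Foxa2, the pioneer factor of endoderm, 17.8-fold. Hnf4a, a regulator of liver and yolk sac products, rose 5.57-fold, with ES control 2 flagged and left out. Onecut1, a factor of liver and pancreas, fell 2.93-fold.

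Secreted products of the visceral endoderm, the absorptive layer of the yolk sac, mostly rose. Of 24 tested members, 20 rose, 3 fell and 1 did not pass (median change 3.63), or 3.15 with lower bounds for genes not above background in one stage. Afp, alpha-fetoprotein, had log2 levels of −7.63, −7.52 and −7.34 on the ES arrays and 2.2, 1.83, 1.77 and 1.83 on the EB9 arrays. No ES array was above background and EB9 control 1 was highest (at least 434-fold higher, log2 change 9.4 ± 0.15 (SE), adjusted p = 1.23e-14). The thyroid hormone carrier gene Ttr rose at least 209-fold, the fibrinogen chain gene Fgb at least 63.3-fold, and the apolipoprotein genes Apob and Apoa1 at least 30.1-fold and at least 21.3-fold. Not every product followed: transferrin (Trf) fell 4.42-fold and the fibrinogen chain gene Fgg 6.53-fold. EB9 control 1 held the highest EB9 reading for 19 of the 24 members, beside 28.8% of all genes; without it Afp still changed by 9.31 and Apoa1 by 6.0.

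Basement membrane and parietal endoderm genes rose by smaller steps. Of 15 tested members, 11 rose, 2 fell and 2 did not pass (median change 1.72). Thbd, a thrombin receptor of parietal endoderm, was not above background in ES cells and rose at least 54.7-fold, and the parathyroid hormone receptor gene Pth1r rose 19.1-fold. The protease gene Plat rose 9.87-fold. Collagen IV (Col4a1) rose 4.24-fold, laminin beta 1 (Lamb1) 3.28-fold and osteonectin (Sparc) 3.11-fold. Laminin alpha 1 (Lama1) fell 1.42-fold and perlecan (Hspg2) 1.52-fold.

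Blood and vessel genes rose together, and their red cell part was uneven between the EB9 arrays. Of 19 tested members, 17 rose, 1 fell and 1 did not pass (median change 2.34). Tal1, a master regulator of blood and endothelial precursors, had log2 levels of −4.67, −4.58 and −4.66 on the ES arrays and 0.81, 0.39, 0.48 and 0.57 on the EB9 arrays. EB9 control 1 was highest and all EB9 arrays exceeded all ES arrays, a 36.7-fold rise (log2 change 5.2 ± 0.15 (SE), adjusted p = 1.76e-12). Its partner Lmo2 rose 12.9-fold, Etv2, which starts the endothelial and blood programme, 5.08-fold, and Gata2 3.34-fold. Gata1, the erythroid factor, had log2 levels of −0.15, −0.32 and −0.32 on the ES arrays and 1.83, 0.67, 0.76 and 0.92 on the EB9 arrays. EB9 control 1 stood above the other 3 EB9 arrays (log2 change 1.31 ± 0.31 (SE), adjusted p = 0.0017), and without it the change was 1.05, adjusted p = 0.00353. Klf1 and Gfi1b, also of red cell precursors, rose 29-fold and 26.7-fold. Runx1, which founds definitive blood, rose 2.3-fold, and its second probe rose by 3.07. Myb, needed for definitive blood, fell 1.41-fold.

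Red cell genes were the steepest blood change. Of 19 tested members, 18 rose, 1 fell and 0 did not pass (median change 4.58); with lower bounds in place of fitted changes the median was 2.96. The embryonic beta-type globin Hbb-bh1 had log2 levels of −5.43, −4.73 and −4.88 on the ES arrays and 7.64, 6.76, 6.9 and 6.94 on the EB9 arrays. ES readings were near the bottom of the scale and EB9 control 1 was highest (log2 change 12.07 ± 0.31 (SE), adjusted p = 6.43e-13). The embryonic globin genes Hbb-y and Hba-x rose 875-fold and at least 1660-fold, the alpha globin Hba-a1 245-fold and Alas2, which starts haem synthesis in red cells, at least 261-fold. Probes of neighbouring globin genes may share signal. EB9 control 1 held the highest EB9 reading for 19 of 19 members. Without it Hbb-bh1 changed by 11.88 and Alas2 by 9.72. Hebp1, a haem-binding protein gene, fell 1.68-fold.

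Markers of macrophages gave no uniform picture. Of 13 tested members, 8 rose, 3 fell and 2 did not pass (median change 1.52). The chemokine receptor Cx3cr1 rose at least 13.2-fold, with a second probe at 0.27, the adaptor Tyrobp rose at least 8.28-fold and myeloperoxidase (Mpo) 14.3-fold. Adgre1, the F4/80 antigen, had log2 levels of −7.48, −6.7 and −5.78 on the ES arrays and −3.96, −5.47, −5.52 and −5.58 on the EB9 arrays. EB9 control 1 stood apart from the other EB9 arrays (log2 change 1.52 ± 0.56 (SE), adjusted p = 0.0252). The call did not hold without ES control 2, ES control 3 or EB9 control 1 (changes of 1.11, 1.5 and 1.13), and a dimmer probe rose by 3.26. The defining gene Csf1r had a change of −0.1 ± 0.33 on its brightest probe and of 2.35 and 1.66 on the other probes. C1qb had a change of 0.02 ± 0.37, and Cd68 and Laptm5 fell 2.24-fold and 10.3-fold.

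Endothelial genes rose, to levels that differed between EB9 arrays. Of 21 tested members, 19 rose, 1 fell and 1 did not pass (median change 3.6). EB9 control 4 held the highest EB9 reading for 11 of the 21 members, beside 14.2% of all genes, and EB9 control 2 the lowest for 15, beside 22.8%. Cdh5, the cadherin of endothelial junctions, had log2 levels of −7.83, −8.27 and −7.35 on the ES arrays and 0.94, 1.11, 1.39 and 1.3 on the EB9 arrays. All EB9 arrays stood far above the ES arrays, none of which was above background (at least 263-fold higher, log2 change 9.0 ± 0.75 (SE), adjusted p = 9.73e-08). The transcription factor Fli1 rose at least 137-fold, the sialomucin Emcn at least 88-fold and the VEGF receptor Flt1 62.4-fold. The main VEGF receptor Kdr rose 1.92-fold on its brightest probe and by 6.87 (log2) on a second. Pecam1, present in ES cells as well as in endothelium, had a change of −0.13 ± 0.11, and Vwf fell 2.08-fold.

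Heart genes split between early regulators, which rose, and sarcomere genes, of which part fell. Of 26 tested members, 16 rose, 8 fell and 2 did not pass (median change 1.92). Cardiac actin (Actc1) had log2 levels of −8.73, −8.74 and −8.97 on the ES arrays and 0.18, 0.13, −0.15 and −0.16 on the EB9 arrays. The stages were far apart and no ES array was above background (at least 116-fold higher, log2 change 8.81 ± 0.25 (SE), adjusted p = 1.76e-12). The regulators Hand2, Tbx20 and Tbx5 rose 393-fold, at least 77.1-fold and 70.9-fold (1 of 3 ES arrays above background), and Nkx2-5, the early heart factor, 2.55-fold. Troponin T (Tnnt2) rose 12-fold and the atrial light chain Myl7 2.1-fold. Alpha myosin heavy chain (Myh6) had log2 levels of 1.03, 0.77 and 0.79 on the ES arrays and 0.12, −0.58, −1.16 and −1.03 on the EB9 arrays. Its EB9 arrays lay below the ES arrays, with EB9 control 1 nearest to them (log2 change −1.52 ± 0.28 (SE), adjusted p = 0.000219). The light chains Myl4 and Myl2 fell 3.03-fold and 6.08-fold (3 of 4 EB9 arrays above background), and cardiac troponin I (Tnni3) fell 6.52-fold.

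Most smooth muscle genes rose, and skeletal muscle genes were divided. In smooth muscle, 6 of 9 tested genes rose and 1 fell, and in skeletal muscle 3 of 10 rose and 5 fell. Acta2 had log2 levels of −6.12, −5.37 and −5.37 on the ES arrays and 5.29, 4.77, 5.01 and 5.07 on the EB9 arrays. It was among the 20 greatest rises, with no overlap (log2 change 10.66 ± 0.17 (SE), adjusted p = 1.09e-14). The smooth muscle coactivator Myocd rose at least 6.71-fold and Synpo2 41.9-fold, while Tagln rose 2.19-fold (1.13 ± 0.42, adjusted p = 0.025), which did not hold without ES control 2 or EB9 control 3 (changes of 0.57 and 1.06). Calponin (Cnn1) fell 1.45-fold. Of the skeletal muscle regulators, Myog was not above background in EB9 and fell at least 1.98-fold, and Myod1 had a change of −0.38 ± 0.30. The sarcomeric genes Acta1 and Tnnt3 rose 67.7-fold and 20.1-fold (2 of 3 ES arrays above background), whereas Myh3 and Tnnt1 fell 97.7-fold and 9.16-fold and Ckm at least 1.83-fold.

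Mesenchyme and its matrix mostly rose. Of 28 tested members, 25 rose, 2 fell and 1 did not pass (median change 4.18), or 3.92 with lower bounds. EB9 control 1 held the highest EB9 reading for 16 of the 28 members and EB9 control 2 the lowest for 18. Type I collagen, built from Col1a1 and Col1a2, rose 122-fold and 260-fold. Twist1, a driver of mesenchymal fate, had log2 levels of −3.4, −2.93 and −2.9 on the ES arrays and 0.67, 1.59, 1.68 and 1.32 on the EB9 arrays. Against the order of the list EB9 control 1 was lowest here, and all EB9 arrays exceeded the ES arrays (log2 change 4.39 ± 0.28 (SE), adjusted p = 6.35e-09). Its relative Twist2 rose at least 340-fold. The surface marker Thy1 fell 14.3-fold.

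Lateral and intermediate mesoderm rose and somite genes did not as a list. Of 11 tested members, 9 rose, 1 fell and 1 did not pass (median change 2.88). The lateral mesoderm factors Tcf21, Foxf1 and Foxf2 rose at least 20-fold, at least 13.3-fold and 26.7-fold. Osr1 and Wt1, of the kidney field, rose at least 5.29-fold and 15.4-fold, but Pax8 fell 39.4-fold (1 of 4 EB9 arrays above background). Somite and cartilage genes were divided. Of 13 tested members, 4 rose, 5 fell and 4 did not pass (median change −0.32). Meox1 rose 2.88-fold and the cartilage factor Sox9 8.35-fold, while Tcf15 fell 6.86-fold, Acan 6.93-fold, Pax9 at least 1.43-fold and Pax1 1.68-fold. Col2a1 did not pass (−0.09 ± 0.31), and EB9 control 2 alone lay above the ES readings.

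Neural genes differed between the progenitor and the neuron list, with exceptions in both. Genes of neural progenitors rose more often than they fell. Of 17 tested members, 9 rose, 3 fell and 5 did not pass (median change 0.72). Nes, the progenitor filament nestin, rose 2.85-fold, Zic1 22.8-fold (1 of 3 ES arrays above background), Sox11 13.1-fold and Irx3 7.38-fold. Pax6 had a change of −0.48 ± 0.28 but passed without EB9 control 2 (change of −0.8). The midbrain factor En2 fell 7.31-fold. Genes of neurons fell more often than they rose. Of 17 tested members, 3 rose, 10 fell and 4 did not pass (median change −1.15). Elavl3, an RNA-binding protein of neurons, had log2 levels of 0.49, 0.5 and 0.46 on the ES arrays and −4.7, −3.48, −4.32 and −4.67 on the EB9 arrays. All EB9 arrays were lower, EB9 control 2 least so, a 27.5-fold fall (log2 change −4.78 ± 0.22 (SE), adjusted p = 2.38e-10). Tubb3 fell 5.39-fold, Map2 2.22-fold and Stmn2 8.83-fold, whereas the growth cone gene Gap43 rose 11.1-fold and the adhesion molecule Ncam1 5.04-fold, with other Ncam1 probes at −0.15 and 0.18. EB9 control 2 was the highest EB9 array for 12 of 17 neuron genes and 11 of 17 progenitor genes. Of 7 glial genes 2 rose and 4 fell; Gfap fell 2.17-fold (1 of 4 EB9 arrays above background).

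In the list of surface ectoderm and keratin genes, simple epithelium keratins rose and epidermal markers were divided. Of 22 tested members, 9 rose, 8 fell and 5 did not pass (median change −0.1). Krt8, of simple epithelia, had log2 levels of 1.09, 1.23 and 1.28 on the ES arrays and 6.14, 6.19, 6.13 and 6.04 on the EB9 arrays. EB9 arrays lay close together and well above the ES arrays, a 30.4-fold rise (log2 change 4.92 ± 0.12 (SE), adjusted p = 4.56e-13). Its partner Krt18 rose 14.5-fold and Krt19 30.5-fold. The basal keratin Krt14 rose 2.09-fold and its partner Krt5 had a change of −0.26 ± 0.34. Trp63, the epidermal regulator, fell 2.93-fold on its brightest probe but its second probe rose by 1.59. E-cadherin (Cdh1), the epithelial adhesion protein of ES cells, fell 5.98-fold.

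In neural crest and trophoblast lists, several genes rose strongly, but most defining genes did not rise. The crest list leaned to rises. Of 11 tested members, 7 rose, 3 fell and 1 did not pass (median change 2.35). Msx1, Ets1 and Snai2, which are known in mesoderm too, rose 42.8-fold, 32.2-fold and 20.2-fold. The defining crest genes Sox10 and Foxd3 fell 1.32-fold and 23.3-fold (1 of 4 EB9 arrays above background), and Tfap2a did not pass (0.41 ± 0.24) but passed without EB9 control 1 (change of 0.57). The trophoblast list was evenly divided. Of 11 tested members, 5 rose, 5 fell and 1 did not pass (median change 0.21). Plac1, Hand1 and Cdx2 rose 984-fold, 124-fold and 66.8-fold. The trophoblast factor Elf5 was not above background in EB9 and fell at least 2.96-fold, and the placental lactogen Prl3d1 had a change of 0.21 ± 0.28, which passed with the slide as a block (0.31, adjusted p = 0.048).

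Hox genes of clusters B, C and D were mostly higher in EB9. Of 27 tested members, 24 rose, 2 fell and 1 did not pass (median change 4.1); the median was 3.3 with lower bounds for the 10 members at background in one stage. EB9 control 1 held the lowest EB9 reading for 18 of the 27 members and the highest for none, and EB9 control 2 the highest for 14. Without EB9 control 1 the same numbers rose and fell. Hoxb1, the most anterior of its cluster, rose at least 4.81-fold, Hoxb5 at least 30-fold, Hoxb8 at least 16.6-fold and Hoxd10 at least 23.4-fold. Hoxb9 had log2 levels of −4.35, −4.18 and −3.99 on the ES arrays and −4.5, −3.3, −3.99 and −4.04 on the EB9 arrays. Its stages overlapped, and it alone did not pass (log2 change 0.22 ± 0.25 (SE), adjusted p = 0.443). Hoxb13 and Hoxc13, at the posterior ends of their clusters, fell 10.1-fold and 18.3-fold, while Hoxd13 rose 1.85-fold. Hoxb13 and Hoxc13 were above background on all 3 ES arrays.

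**Figure D3:**
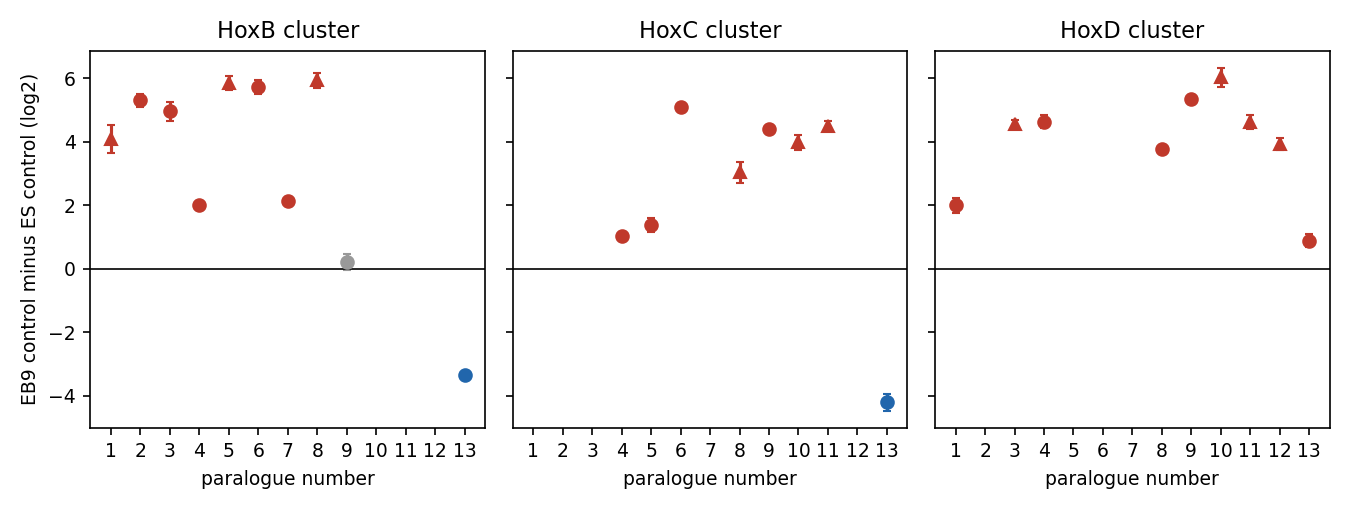
Change from ES control to EB9 control (log2 ± SE, vertical axis) of the tested genes of the Hox clusters B, C and D by paralogue number (horizontal axis); red rose, blue fell, grey did not pass, and triangles mark genes not above background on any array of one stage, whose fold is a lower bound. Hoxb13 and Hoxc13 lie below 0, and Hoxb9 at 0.22 did not pass.

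Factors that act with or upstream of Hox genes mostly rose, while Cdx1 and Cdx2 changed in opposite directions. Of 11 tested Cdx, Meis and Pbx genes, 7 rose, 3 fell and 1 did not pass (median change 2.19). Cdx2 had log2 levels of −4.11, −4.09 and −4.01 on the ES arrays and 1.65, 2.01, 2.15 and 2.14 on the EB9 arrays. It rose 66.8-fold (log2 change 6.06 ± 0.21 (SE), adjusted p = 1.34e-11) with no overlap. Cdx1 had log2 levels of 1.86, 1.65 and 1.67 on the ES arrays and −3.78, −2.34, −3.28 and −3.21 on the EB9 arrays. It fell 29.5-fold (log2 change −4.88 ± 0.26 (SE), adjusted p = 8.86e-10), and EB9 control 2 was the highest EB9 array. The Hox cofactors Meis1 and Meis2 rose 22.8-fold and 15.3-fold. Of 8 GATA factors and their cofactors 8 rose, among them Gata3 (7.34-fold), Zfpm2 (at least 74.1-fold) and Zfpm1 (3.26-fold).

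Genes of Polycomb complexes, which silence developmental genes in ES cells, split between rises and falls. Of 33 tested members, 13 rose, 15 fell and 5 did not pass (median change −0.11). Among the chromodomain subunits, Cbx8 rose 2.43-fold and Cbx2 1.61-fold, while Cbx6 and Cbx7 had changes of 0.23 ± 0.12 and −0.34 ± 0.23 and did not pass; Cbx6 passed with the slide as a block (0.27, adjusted p = 0.00209). Cbx7 had log2 levels of −4.97, −4.22 and −4.21 on the ES arrays and −4.78, −4.64, −4.46 and −5.35 on the EB9 arrays. The stages overlapped, and Cbx7 passed without ES control 2 (change of −0.59). A second, dimmer Cbx7 probe gave −2.76 ± 1.23 (adjusted p = 0.0581 over probes) and passed with the slide as a block (−2.26 ± 0.17, adjusted p = 4.61e-07); its changes within the 3 slides holding both stages were −1.87, −2.27 and −2.36. Phc1 fell 5.46-fold (second probe −0.92) and its paralogue Phc2 rose 3.03-fold. Mtf2 and Scml2 fell 4.12-fold and 2.89-fold, and Yaf2 and Pcgf5 rose 4.61-fold and 2.61-fold. The methyltransferases Ezh1 and Ezh2 fell 1.56-fold and 1.15-fold; the Ezh2 call was lost under median scaling (−0.04, adjusted p = 0.684) and did not hold without ES control 2, ES control 3, ES control 4, EB9 control 1 or EB9 control 4 (changes of −0.21, −0.2, −0.19, −0.15 and −0.19).

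Genes that write, read or remove DNA methylation fell more often than they rose, as did all genes tested (41.5% fell and 33.2% rose). Of 20 tested members, 6 rose, 11 fell and 3 did not pass (median change −0.36). Dnmt3l, cofactor of the de novo enzymes, fell 18.1-fold, and the oxidase Tet1 4.65-fold. The de novo enzyme Dnmt3a rose 2.61-fold and Dnmt3b did not pass (−0.17 ± 0.14). The deaminase gene Apobec1 fell 27.3-fold, and the methyl-DNA reader Mbd2 rose 3.52-fold. Of fetal RNA regulators, Lin28b rose 2.8-fold and Lin28a did not pass (0.22 ± 0.22), while the chromatin protein gene Hmga2 rose 38.1-fold.

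Imprinted genes, expressed from one parental copy and many of them growth regulators, mostly rose. Of 25 tested members, 21 rose, 3 fell and 1 did not pass (median change 2.74). Igf2, the fetal growth factor, had log2 levels of −7.15, −8.3 and −7.27 on the ES arrays and 0.08, −0.23, 0.03 and 0.12 on the EB9 arrays. No ES array was above background and the EB9 arrays lay close together (at least 116-fold higher, log2 change 7.57 ± 0.25 (SE), adjusted p = 8.35e-12). Dlk1 had log2 levels of −1.35, −1.54 and −1.46 on the ES arrays and 6.5, 6.15, 6.43 and 6.4 on the EB9 arrays. It rose 226-fold without overlap (log2 change 7.82 ± 0.10 (SE), adjusted p = 2.49e-15). Peg3, H19, Mest and Meg3 rose 38.1-fold, 14.8-fold, 5.4-fold and 4.55-fold. The 3 falls, of Zrsr1, Nnat and Kcnq1ot1, were of at most 1.47-fold and none held under median scaling or without ES control 2.

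Signalling genes rose in most families, with a change of members within them. For Nodal and TGF-beta, 18 of 26 rose and 5 fell. Nodal, the ligand that maintains the epiblast, fell 2.78-fold, its coreceptor Tdgf1 37.5-fold and the activin subunit Inhbb 23.3-fold. The related coreceptor Cfc1 rose 35-fold, the activin subunit Inhba at least 19-fold and the ligand Tgfb2 58.7-fold (2 of 3 ES arrays above background), with a second probe at 8.26. The Nodal inhibitor Lefty2 rose 4.62-fold and Lefty1 did not pass (0.25 ± 0.15) but passed without EB9 control 1 (change of 0.38). For BMP, 18 of 21 rose: the ligands Bmp5, Bmp2, Bmp4 and Bmp7 at least 27.5-fold, 46.8-fold, 4.27-fold and 1.25-fold, and the target Id1 1.85-fold.

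In the Wnt family 24 of 36 genes rose and 5 fell. The ligand Wnt5a rose 44.9-fold, the antagonists Dkk1 and Frzb 39.2-fold and at least 58.8-fold, and the nuclear effector Lef1 9.94-fold. The feedback target Axin2 had log2 levels of −4.05, −2.79 and −2.72 on the ES arrays and −3.1, −1.06, −1.45 and −2.18 on the EB9 arrays. Readings of slide 1, which held ES control 2 and EB9 control 1, were low in both stages; Axin2 did not pass (log2 change 1.24 ± 0.60 (SE), adjusted p = 0.0787) and passed with the slide as a block (1.34, adjusted p = 1.39e-05), and it passed without EB9 control 1 (change of 1.62). The receptors Fzd9 and Fzd5 fell 18-fold and 8.66-fold, and the antagonist Wif1 8.85-fold (3 of 4 EB9 arrays above background). In the FGF family 14 of 22 rose and 8 fell. The ligand of ES cells, Fgf4, and the nuclear effector Etv4 fell 62.1-fold and 14.2-fold, while Fgf8 rose 1.98-fold and the receptors Fgfr1 and Fgfr2 1.58-fold and 7.63-fold. Of the feedback inhibitors, Dusp6 rose 1.67-fold and Spry4 fell 5.29-fold (3 of 4 EB9 arrays above background), which did not hold without ES control 3, ES control 4, EB9 control 1 or EB9 control 4 (changes of −2.08, −2.09, −1.77 and −2.26).

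In the Notch and retinoic acid families the members were divided, and most Hedgehog genes rose. For Notch, 7 of 20 rose and 8 fell: the vascular ligand Dll4 and the effectors Hey2 and Heyl rose 6.75-fold, 12.1-fold and 27.6-fold (1 of 3 ES arrays above background), while Dll3, the nuclear partner Rbpj and Notch1 fell 2.44-fold, 3.53-fold and 1.54-fold. The Notch1 call did not hold without ES control 3, ES control 4, EB9 control 1 or EB9 control 4 (changes of −0.6, −0.52, −0.51 and −0.55). Hes1 did not pass (0.23 ± 0.35) but did with the slide as a block (0.32, adjusted p = 0.000438). For Hedgehog, 10 of 14 rose. The endoderm ligand Ihh rose 30-fold and Shh at least 4.65-fold, whereas Dhh fell 4.82-fold. The target Ptch1 rose 2.34-fold (1.23 ± 0.49, adjusted p = 0.0361), which did not hold without ES control 2, EB9 control 2 or EB9 control 3 (changes of 0.77, 1.03 and 1.05). The target Gli1 fell 1.22-fold, which did not hold without ES control 2, ES control 3, ES control 4 or EB9 control 2 (changes of −0.26, −0.29, −0.32 and −0.2). In the retinoic acid pathway, the receptor and target Rarb rose 47.5-fold and the degrading enzymes Cyp26a1 and Cyp26b1 22.9-fold and 12.9-fold. The synthesis enzyme Aldh1a2 did not pass (0.08 ± 0.36) and Aldh1a3 fell 5.5-fold. Among other ligands the chemokine Cxcl12 rose 93.3-fold and Vegfa 2.45-fold (second probe 0.51), and Pdgfa fell 1.66-fold.

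**Figure D4:**
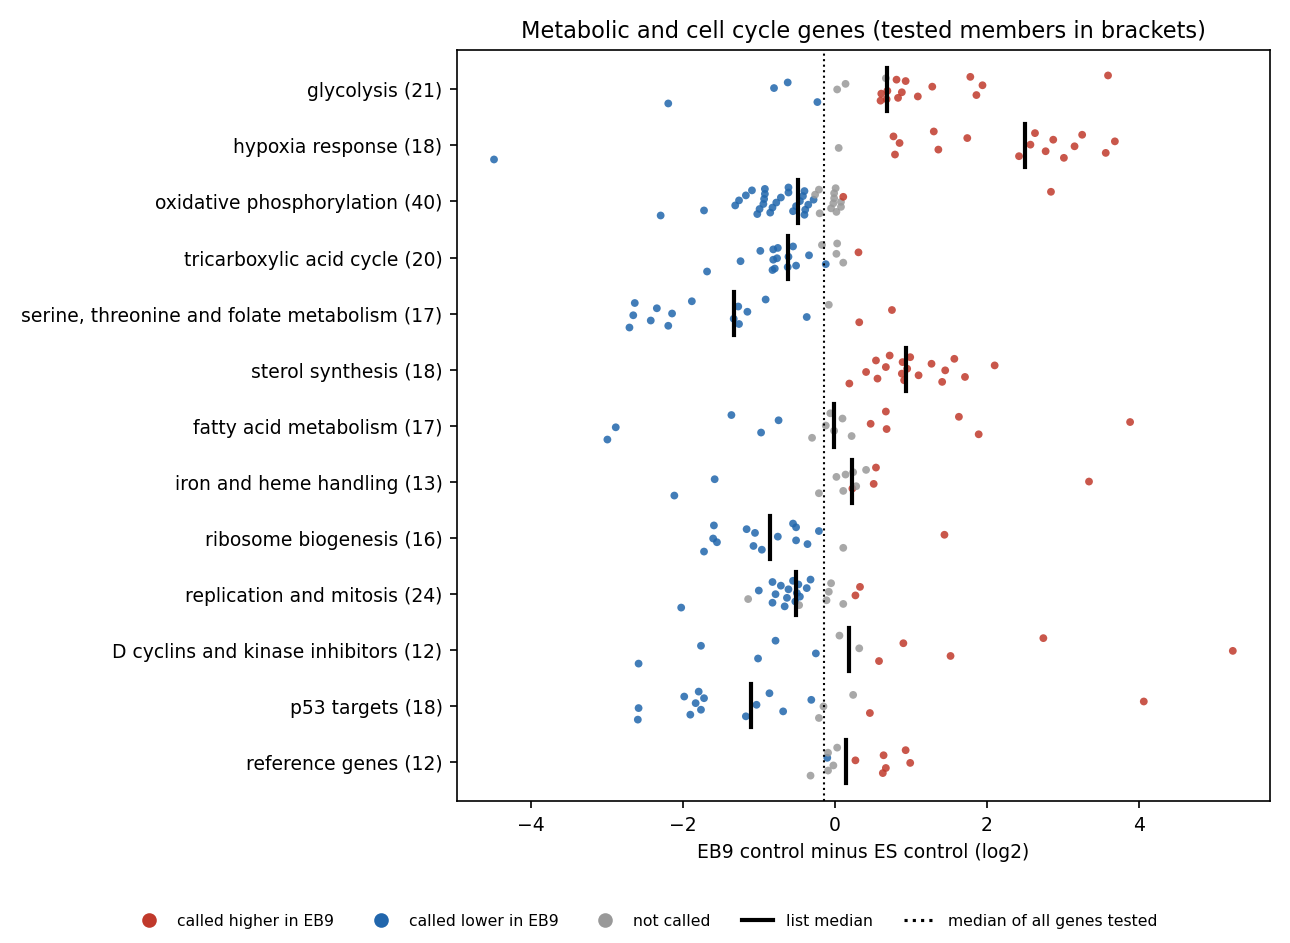
Change from ES control to EB9 control (log2, horizontal axis) of the tested members of 13 metabolic, growth and cell cycle lists, drawn as in the plot of cell type lists. Hypoxia response and sterol synthesis lie to the right of the median of all genes, and serine, threonine and folate metabolism, p53 targets and ribosome biogenesis to the left.

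Glycolysis and hypoxia response genes mostly rose. In glycolysis, which splits glucose to pyruvate and lactate, 14 of 21 genes rose and 4 fell. The lactate exporter Slc16a3 had log2 levels of 1.95, 1.81 and 1.88 on the ES arrays and 5.58, 5.43, 5.45 and 5.44 on the EB9 arrays. Stages did not overlap, a 12.1-fold rise (log2 change 3.59 ± 0.06 (SE), adjusted p = 2.89e-14). The glucose carriers Slc2a1 and Slc2a3 rose 3.64-fold and 1.52-fold, Tpi1 3.83-fold and Pkm 1.84-fold. Ldha (other probes 2.18 and 2.14) and the pyruvate dehydrogenase kinase gene Pdk1 each rose 1.61-fold. Ldhb, the lactate dehydrogenase subunit of oxidative tissue, fell 4.58-fold, and the hexokinases Hk1 and Hk2 fell 1.74-fold and 1.18-fold; Hk2 did not pass under median scaling (−0.08, adjusted p = 0.545) and its call did not hold without ES control 4 or EB9 control 3 (changes of −0.2 and −0.19). EB9 control 1 was the highest EB9 array for 15 of the 21 genes. Of 18 hypoxia response genes 16 rose (median change 2.5), led by Ankrd37 (12.8-fold), Egln3 (11.8-fold) and Adm (9.52-fold), with Bnip3 5.37-fold higher. Hif1a rose 1.73-fold, Epas1 did not pass (0.05 ± 0.17), and Car9 fell 22.3-fold (3 of 4 EB9 arrays above background).

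Mitochondrial genes were lower by small steps. Of 40 genes of oxidative phosphorylation 27 fell and 2 rose (median change −0.48), and of 20 of the tricarboxylic acid cycle 15 fell and 1 rose (−0.61). Median scaling moved the median of all genes from −0.14 to 0.01, so falls of this size shift with the scale; 23 and 12 genes of these lists still fell under it. Cox7a1 and Cox5a, of cytochrome oxidase, fell 4.89-fold and 3.28-fold, cytochrome c (Cycs) 2.48-fold and Uqcrc1 2.4-fold. Ndufs1, Atp5b and Cox4i1 fell 1.38-fold, 1.42-fold and 1.53-fold, and Sdha did not pass (0.01 ± 0.04). The cycle enzymes Idh3a and Cs fell 2.36-fold and 1.26-fold; under median scaling Cs and Ndufs1 did not pass. Ppargc1a, a coactivator of mitochondrial growth, was not above background in ES cells and rose at least 2.03-fold.

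Serine, threonine and folate metabolism, which supplies methyl groups and nucleotides to ES cells, fell in 14 of 17 genes. Tdh, threonine dehydrogenase, on which mouse ES cells depend, had log2 levels of 4.31, 4.19 and 4.24 on the ES arrays and 1.83, 1.9, 1.97 and 1.93 on the EB9 arrays. All EB9 readings lay below the ES readings with little spread, a 5.06-fold fall (log2 change −2.34 ± 0.13 (SE), adjusted p = 1.42e-09). Gldc, of glycine cleavage, fell 6.49-fold, Mthfd2 6.29-fold, Mat2a, which makes S-adenosylmethionine, 6.2-fold, and Phgdh, the entry to serine synthesis, 3.68-fold. Among the genes of the list that rose was Tyms, which makes thymidylate (1.25-fold), and its call did not hold without ES control 2 or EB9 control 3 (changes of 0.23 and 0.28).

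Sterol synthesis rose in 18 of 18 genes. Hmgcs1, an early enzyme of the pathway, rose 2.73-fold and Lss, which makes lanosterol, 3.27-fold. Fatty acid genes divided: Scd2 and Fabp1 rose 3.7-fold and at least 8.75-fold, and Cpt1a, the gate of fatty acid oxidation, and Fabp3 fell 7.95-fold and 7.38-fold. The iron exporter Slc40a1 rose 10.2-fold.

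Most genes of replication and mitosis, p53 targets and ribosome biogenesis fell, while D cyclins and kinase inhibitors were divided. Of 24 genes of replication and mitosis 16 fell and 2 rose (median change −0.51). Falls of this size shift with the scale, since median scaling moved the median of all genes from −0.14 to 0.01. Ccne1, cyclin E, which drives entry into S phase, fell 4.05-fold and Mcm2 1.64-fold, while Mki67 rose 1.21-fold and Pcna did not pass (0.11 ± 0.09). Ccnd2, cyclin D2, had log2 levels of −3.2, −3.28 and −3.36 on the ES arrays and 2.08, 1.93, 1.82 and 1.96 on the EB9 arrays. No reading overlapped, a 37.4-fold rise (log2 change 5.23 ± 0.07 (SE), adjusted p = 3.99e-15). The kinase inhibitors Cdkn1c and Cdkn1b rose 6.69-fold and 2.87-fold, and Cdkn1a and Cdkn2a fell 5.96-fold and 3.38-fold, with a second Cdkn1a probe at −0.54. Of 18 p53 targets 13 fell, among them Mdm2 (2.25-fold), Ccng1 (3.94-fold) and Aen (6.01-fold), and the death receptor Fas rose 16.7-fold. Ribosome biogenesis fell in 14 of 16 genes, with Rrp9 3.29-fold and Bop1 3.04-fold lower.

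Interferon genes were uneven between EB9 arrays, and reference genes were not all level. Of 20 interferon and antigen presentation genes 8 rose and 6 fell. Ifit3, an interferon-induced gene, had log2 levels of −9.12, −8.11 and −9.17 on the ES arrays and 0.31, −1.91, −1.69 and −1.73 on the EB9 arrays. EB9 control 1 stood apart above the other EB9 arrays (at least 48.5-fold higher, log2 change 7.54 ± 0.59 (SE), adjusted p = 5.16e-08), and it was the highest EB9 array for 16 of the 20 genes. B2m, a chain of class I molecules, rose 3.97-fold and H2-K1 did not pass (−0.11 ± 0.10). Of the immediate early genes, Jun rose 18.9-fold and Fos and Egr1 fell 1.46-fold and 2.33-fold. Among 12 reference genes 6 rose and 1 fell, with changes from −0.32 to 0.99; Actb rose 1.99-fold. The 1 that fell was Tbp (−0.1 ± 0.04); its change was 0.05 under median scaling, and the call did not hold without ES control 2, ES control 3, EB9 control 1, EB9 control 3 or EB9 control 4 (changes of −0.08, −0.11, −0.1, −0.1 and −0.11).

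The cells labelled KD33 offered separate arrays for the same step, and the probes of Cbx7 gave different answers on its depletion. Its brightest probe differed between KD33 and control by −0.13 ± 0.23 in ES cells (adjusted p = 0.733) and −0.16 ± 0.22 in EB9 (adjusted p = 0.708), over all probes kept. With the slide as a block these were −0.03 ± 0.13 and −0.16 ± 0.12 and did not pass either. The second probe, above background on 3 of 3 ES control and 2 of 4 ES KD33 arrays, differed by −1.91 ± 1.23 in ES cells (adjusted p = 0.256). Its readings moved with the slide, and within the 3 slides that held both the difference was −1.56, −1.3 and −1.57, lower in cells labelled KD33 each time. With the slide as a block, an alternative chosen after these values were seen, it passed in ES cells (−1.41 ± 0.17, adjusted p = 0.0001). In EB9 it differed by −0.27 ± 1.14 (adjusted p = 0.92), and by −0.27 ± 0.15 with the block (adjusted p = 0.221). In these cells 16505 genes (77.9%) passed between EB9 and ES cells. In the same direction in both were 14057, or 88.7% of the control calls and 85.2% of the KD33 calls, and 361 passed in opposite directions. The changes themselves differed for 6290 genes (29.7%), by at least 1 unit for 1134, and the number moved with the processing (3929 under median scaling, 8682 with the slide as a block and 10097 with array weights).

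Among list genes, larger differences included these of mesoderm, growth and the body axis. T changed by 2.36 in control cells and −1.44 in cells labelled KD33 (difference −3.8 ± 0.53, adjusted p = 0.000211). Ccnd2 changed by 5.23 and 2.12 (difference −3.11 ± 0.10, adjusted p = 3.15e-09), and the imprinted gene Mest changed by 2.43 and 0.03 (difference −2.4 ± 0.15, adjusted p = 6.38e-07). Fgf8 changed by 0.99 and −1.07, and Pax1 by −0.75 and −4.27. The mesenchyme factor Twist2 changed by 10.3 and 7.21 (difference −3.09 ± 0.27, adjusted p = 6.93e-06). Meis2 went the other way, with 3.94 and 6.15 (difference 2.21 ± 0.14, adjusted p = 6.85e-07). In Hox clusters B, C and D, 14 of 27 genes differed by at least 1 unit towards a lower change in cells labelled KD33. No Hox gene did so in the other direction. The Hox count was not tested under other processing. Of all 21187 genes tested, 1134 had a difference of at least 1 unit in either direction. Naive pluripotency, red cell and Polycomb genes held no such difference in either direction. The same was true of many other lists, among them oxidative phosphorylation, ribosome biogenesis and DNA methylation.

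**Figure D5:**
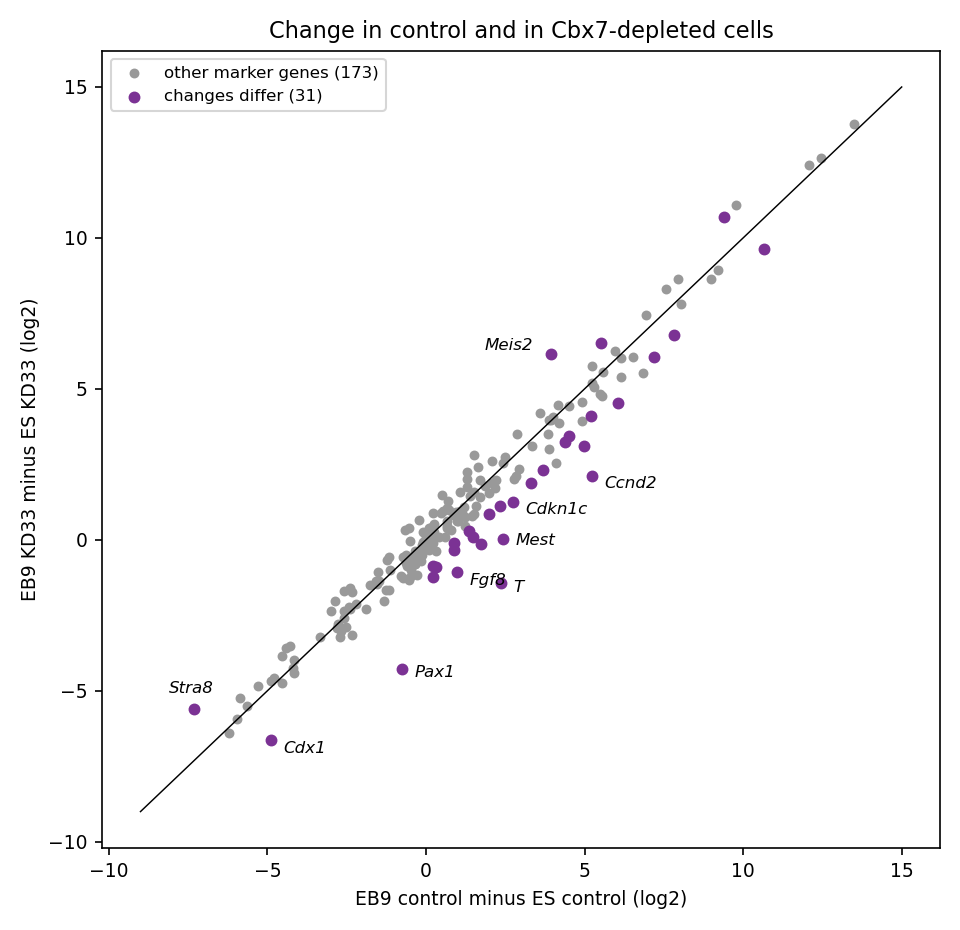
Change from ES cells to EB9 in cells labelled KD33 (vertical axis, log2) against that in control cells (horizontal axis, log2) for 204 marker genes; the line marks equal changes and purple points are the 31 genes whose changes differed (adjusted p under 0.05 and at least 1 unit). T, Ccnd2, Pax1 and Mest lie below the line and Meis2 above it.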

How the data were processed

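RNA of 15 samples was read on 1-colour Agilent arrays. Per the file headers, Agilent Feature Extraction 10.7.3.1 made the deposited processed intensity values, with background subtracted. The authors also deposited a table of log2 values, which normexp background correction (offset 50) and quantile normalization of the scanner values matched to within 0.000154; it served as an alternative.

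For each array, the log2 processed intensity of non-control features minus its 75th percentile was taken, outlier-flagged spots were left out and spots of a probe averaged. Probes were named through RefSeq accessions (26424 of 39429), current symbols (3983), older symbols (826) or the file's own name (8196). Kept probes (27253) lay well above background in no fewer than 3 arrays of 1 group, and the brightest stood for its gene (21187). One mean per group was fitted over all 15 arrays with limma 3.58.1 (R 4.3.3; files read with version 1.17.8 of data.table), with 11 residual degrees of freedom and Benjamini-Hochberg adjustment over all genes. For 79 genes a value was missing. On simulated data of 21108 genes for EB9 control against ES control, changes of 0.5, 1, 2 and 4 log2 units were set. Of these, 56%, 70%, 88% and 100% were recovered, in that order. Recovery with a share of changed genes as large as that called here was not tested.

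A lower bound of a fold sets the brighter group's mean against the higher of the dim probe's own signal and the lowest signal well above background on each array of the dimmer group. The number of arrays limits the precision. Genes named are defining members of the lists, the 20 greatest rises and 20 greatest falls, and up to 3 greatest called rises and falls of each list; further names complete small counts or, for 4 promoters, were chosen after the values were seen. Members and lists were chosen with earlier results of these data known. Promoters came from RefSeq (GRCm38.p6) and carry no test. The slide as a block for the Cbx7 probes was added after the values were seen. Alternatives covered background correction, scaling, filters, probe choice, array weights, blocks and each array left out. A few list genes counted here are not reported by name.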

Additional observations from a re-analysis of the deposited data

Results flagged for a closer look

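For 26 of the 349 genes named (7.45%), 1 EB9 control array stood apart from the other 3 by Dixon's criterion, which chance meets in about 1 of 20 groups. EB9 control 1 read above the others at log2 levels of −3.96 for Adgre1, 2.2 for Afp, 2.96 for Ankrd37, −1.47 for Cx3cr1, −1.6 for Eomes, 1.54 for Gfi1b, 0.31 for Ifit3, −4.0 for Inhbb, −4.94 for Laptm5, −4.25 for Shh, 5.58 for Slc16a3 and −2.52 for Tyrobp. EB9 control 1 read below the others at log2 levels of −0.57 for Etv2, 2.76 for Hand1, 0.96 for Pdk1, 2.55 for Rspo3, −2.82 for Sox9 and −1.58 for Tet1. EB9 control 2 read above the others at log2 levels of 1.14 for Col2a1, −3.39 for Dll1, −1.45 for Dll3 and −3.52 for Gsc. EB9 control 2 read below the others at log2 levels of 2.18 for Cxcl12, 0.9 for Gli1, −1.52 for Pecam1 and 0.03 for Peg3.

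For 51 genes named, the change from ES cells to EB9 differed between cells labelled KD33 and control cells by at least 1 unit, with limma adjusted p-values from 3.15e-09 to 0.0392 for the interaction. Differences of the log2 changes, KD33 minus control, were −3.8 for T, −3.52 for Pax1, −3.11 for Ccnd2, −3.09 for Twist2, −2.4 for Mest, −2.33 for Cfc1 and −2.06 for Fgf8. They were −1.87 for Gata2, −1.86 for Fgf5, −1.75 for Cdx1, −1.54 for Cdx2, −1.49 for Cdkn1c, −1.46 for Wnt3, −1.44 for Hoxb9, −1.43 for Gsc, −1.41 for Lef1, −1.39 for Lmo2, −1.39 for Lin28b and −1.37 for Msx1. Smaller ones in this direction were −1.26 for Ldhb, −1.22 for Etv2, −1.22 for Mesp1, −1.22 for Hoxd13, −1.21 for Hoxb8, −1.14 for Zfpm2, −1.14 for Twist1, −1.13 for Trf, −1.11 for Myb, −1.1 for Tal1, −1.1 for Lin28a, −1.09 for Hand2, −1.09 for Cyp26a1, −1.07 for Sall2, −1.06 for Sycp3, −1.05 for Dlk1, −1.04 for Nkx2-5 and −1.03 for Acta2. Differences in the other direction were 3.27 for Xlr5a, 2.87 for C130073F10Rik, 2.78 for Xlr5b, 2.5 for Xlr5c, 2.21 for Meis2, 1.95 for Taf7l2, 1.83 for Pramel14, 1.72 for Icam2, 1.71 for Stra8, 1.36 for Asb4, 1.28 for Afp, 1.07 for Gtsf1, 1.03 for Onecut1 and 1.01 for Pdgfra, the Xlr5 values coming from near-identical copies. A probe of Cbx7 was lower in these cells than in the controls at the ES stage with the slide as a block and its brightest probe did not pass, and the cause of these differences was not tested.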

How the results depend on the processing

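The count of genes called, 15840, ranged from 15065 to 15847 on leaving out each control array in turn, with 6751 to 6962 rising, 8264 to 8968 falling, 3777 to 3850 rising at least 2-fold and 4482 to 4902 falling at least 2-fold. For cells labelled KD33 the range was 16397 to 16644, and for genes whose change differed 5270 to 6550. Over all alternatives, 89.8% to 99.9% of the called genes tested there were called in the same direction, fewest under median scaling. The count of differing genes was 3929 under median scaling and 10097 with array weights, against 6290. At least 2-fold falls numbered 3072, against 4611, where only genes well above background on all 7 control arrays were tested, by construction fewer. Directions turned for Tbp under median scaling (0.05), for Csf1r (1.3), Trp63 (0.02) and Vwf (0) with the mean of a gene's probes, whose probes disagree, and for Nnat within slide 1 (0.03); for the others the cause was not tested.

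Stages share replicate numbers, but same-numbered arrays deviated together with r of −0.30, 0.37 and −0.34, so the numbers do not pair them; with the replicate block 16062 genes were called. With the slide as a block 17205 were called, and arrays of 1 slide correlated with r of 0.44, 0.21 and 0.40. Between arrays of different slides r ranged from −0.52 to 0.41. Signal over background limits genes near the floor, whose folds are lower bounds.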
